A study of Mus musculus with 18 samples.

Results

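The genes of oxidative phosphorylation were followed along the cochlea of 4-week-old mice, 92 of them encoded in the nucleus and 13 in the mitochondrial genome. They are 105 of the 46583 genes in the deposited table. They were taken by symbol: Nduf genes, Sdha to Sdhd, Uqcr genes, Cox4 to Cox8 genes, Atp5 genes, and the protein genes whose names begin with mt-. A further 4 names marked as pseudogenes (-ps) were left out. The samples are base, middle and apex of cochleae with a conditional knock-out of Fst (Fst cKO) and of Control cochleae, labelled WT, all untreated. Fst codes for follistatin, which is secreted and blocks activins. The labels used here name neither the Cre driver of the knock-out nor the number of animals. Each region of each genotype was pooled before RNA extraction, and 3 technical libraries were made from that 1 pool. The error of every value below is therefore the spread of 3 libraries, p-values carry that spread only, and each comparison sets 1 pool against another with no measure of how animals vary.

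Oxidative phosphorylation makes most of the ATP of a resting cell. Complex I takes electrons from NADH and complex II from succinate. Complexes III and IV pass them to oxygen while complexes I, III and IV pump protons, and complex V, the ATP synthase, uses the proton gradient to make ATP. The mitochondrial genome encodes core subunits of complexes I, III, IV and V, whereas all of complex II and every assembly factor come from nuclear genes. In the cochlea the marginal cells of the stria vascularis, which secrete potassium into the endolymph, are packed with mitochondria, and hair cells and spiral ganglion neurons also depend on mitochondrial ATP.

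Libraries held 24446760 to 33732726 counts. Levels are in CPM, a gene's counts scaled to a common library total. In that unit 3 counts, which is as high as a true level behind a count of 0 may be, came to 0.0889 to 0.123; such floors cover counting error only. Fst was at 1.86 ± 0.122 CPM in Fst cKO base against 2.17 ± 0.211 in Control base, at 2.99 ± 0.348 in Fst cKO middle against 6.38 ± 0.573 in Control middle, and at 9.84 ± 0.395 in Fst cKO apex against 24.4 ± 0.882 in Control apex (SD, n = 3 libraries each). The deleted part of the gene is not given in the labels, so residual counts say nothing of its efficiency. Markers of hair cells (144.4 to 481.3 CPM summed over 7 genes), supporting cells (2636 to 3423 CPM over 6) and stria vascularis marginal cells (2146 to 3573 CPM over 8) were present in all 6 groups, as a cochlea should have them. Control base replicate 3, the library with the fewest counts, was the highest of its pool in all 7 measured mitochondrial genes.

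Of the 13 mitochondrial members, 7 were measured at high counts and 6 were at or near 0, and this split followed their position in the genome. In genome order, mt-Nd1, mt-Nd2 and mt-Co1 had counts, mt-Co2, mt-Atp8, mt-Atp6, mt-Co3 and mt-Nd4l were listed at 0 in all 18 libraries, mt-Nd3 had 1 to 9 counts, and mt-Nd4, mt-Nd5, mt-Nd6 and mt-Cytb had counts again. The gap runs without a break from 7013 to 10173 of the mitochondrial genome (GRCm38). Chromosome 1 of the mouse carries a copy of this stretch, annotated in GENCODE M21 as a row of unprocessed pseudogenes on the minus strand, chr1:24611535-24616197. Of the 50-base windows of mt-Co2, 99.5% also occur in the pseudogene Gm28661. The shared part was 99.5% for mt-Atp6 (Gm10925), 99.9% for mt-Co3 (Gm28437), 98.0% for mt-Nd3 (Gm28438) and 98.8% for mt-Nd4l (Gm10222). For mt-Atp8, 0 of 155 windows occur in any of these pseudogenes, and no gene is annotated between Gm10925 and Gm28661. The copies held 0 to 3 counts per library, so the table holds almost no reads of this stretch in either place.

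The first 60 bases of mt-Co2, which encodes a core subunit of complex IV, and of its copy are shown because the 2 read the same; they are in lower case since no base differs.
mt-Co2: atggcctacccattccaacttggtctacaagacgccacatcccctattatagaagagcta
Gm28661: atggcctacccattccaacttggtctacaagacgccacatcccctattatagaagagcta
Over all 681 aligned bases they had 0 differences. The copy of mt-Co1, the catalytic subunit of complex IV, ends within the gene, and its 483 aligned bases held 1 difference. That stretch is shown with the differing base in capitals (bases 1063 to 1122 of mt-Co1, RNA strand of both).
mt-Co1: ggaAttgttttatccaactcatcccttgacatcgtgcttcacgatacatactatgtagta
Gm29216: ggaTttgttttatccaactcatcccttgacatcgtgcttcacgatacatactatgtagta
Because its copy is partial, 28.7% of the windows of mt-Co1 are shared, and for mt-Nd4 (Gm28439) the share is 62.2%. Both had high counts, 276919 to 433028 for mt-Co1 and 63284 to 94733 for mt-Nd4, and their levels are uncertain to the extent that shared reads were lost. mt-Nd1, mt-Nd2, mt-Nd5, mt-Nd6 and mt-Cytb share 0 windows with these pseudogenes. They lie outside the stretch that the pseudogenes copy, and no other gene was searched for shared windows. How the authors counted reads that match 2 places is not given in the sources used here, and its part in the gap was not tested. The strand setting of the count is not given either, so reads of mt-Nd6, which lies on the opposite strand to the other 12 and overlaps the end of mt-Nd5, cannot be told apart from reads of the other strand.

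**Figure D1:**
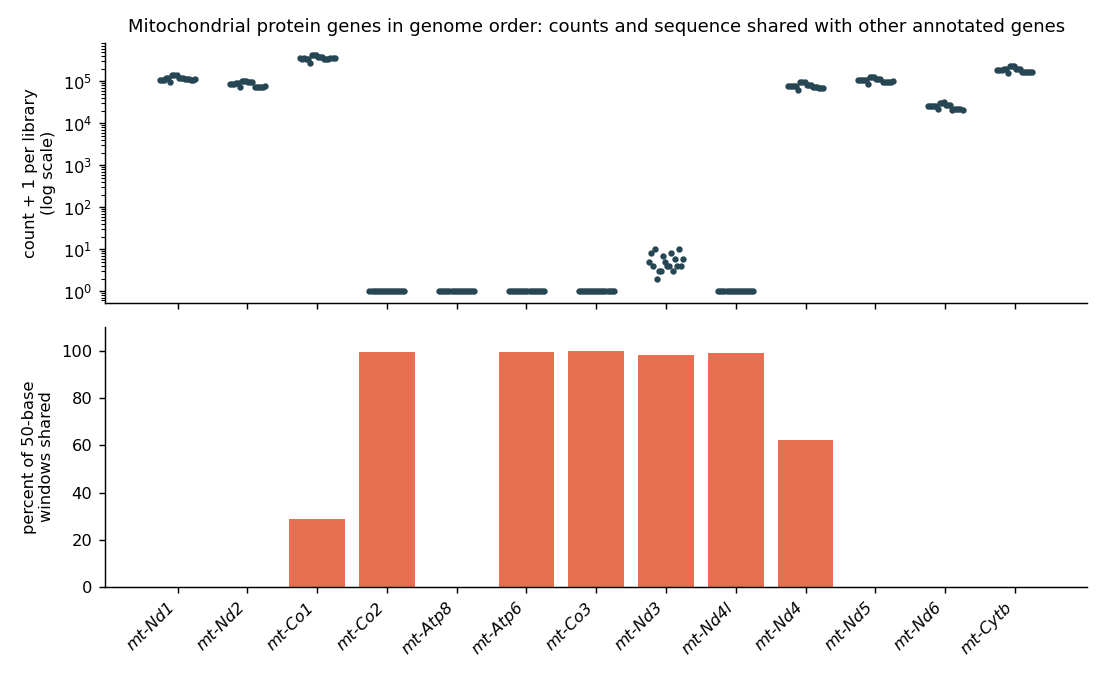
Counts of the 13 mitochondrial protein genes in genome order in each of 18 libraries (top, count + 1, log scale). The bottom shows the percent of their 50-base windows that also occur in the pseudogenes searched (from 0). The 5 genes at 0 and mt-Nd3 lie side by side, and 5 of these 6 share 98.0% to 99.9% of their windows.

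By the authors' FPKM, which is per length of transcript, the most abundant nuclear members were Cox8a, a small subunit of complex IV, at a mean of 916.3 FPKM, and Atp5b, the catalytic beta subunit of ATP synthase, at 822.4 FPKM. Median levels were 116.6 FPKM over 43 complex I genes, 102.6 over 4 of complex II, 240.0 over 8 of complex III, 184.1 over 19 of complex IV and 239.2 over 17 of complex V, with Cox7a2l, which links complexes III and IV, at 118.1. These 17 include Atp5s (10.17 FPKM) and Atp5sl (30.11 FPKM), which were placed in complex V by name and are not counted as its subunits. The top member was Ndufa3 (276.4 FPKM) in complex I, Sdha, the flavoprotein of succinate dehydrogenase (160.5 FPKM), in complex II and Uqcrh (485.2 FPKM) in complex III. Mitochondrial members were far above these, from 2258 FPKM for mt-Nd4 to 9175 FPKM for mt-Co1. At the low end, Cox8c had 0 to 1 counts, Cox7b2 0 to 4 and Cox6a2 0 to 7 per library, at or near the floor. These 3 and the 6 mitochondrial genes of the gap did not pass the filter on low counts, which left 89 nuclear and 7 mitochondrial members among 17901 genes tested.

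The share of nuclear members was higher toward the apex, and that of mitochondrial members was not. The nuclear members together took 1.04% ± 0.001 of the counts in base, 1.108% ± 0.00153 in middle and 1.166% ± 0.00416 in apex of the Fst cKO, and 1.021% ± 0.00436, 1.129% ± 0.00231 and 1.146% ± 0.00153 in base, middle and apex of Control (SD, n = 3 libraries). The mitochondrial members took 3.616% ± 0.0129, 3.435% ± 0.00862 and 3.241% ± 0.011 in base, middle and apex of the Fst cKO. In Control they took 3.124% ± 0.0454, 3.513% ± 0.011 and 3.102% ± 0.00902. The mitochondrial genes of the gap add almost nothing to these sums, and shared reads of mt-Co1 and mt-Nd4 may be missing. These shares and the ratio below therefore cover only the mitochondrial genes that were measured. In both genotypes the base had the lowest nuclear share and the apex the highest. The mitochondrial share fell in steps along the Fst cKO cochlea, whereas in Control it was highest in the middle and base and apex differed by less than the spread of the base libraries. The ratio of mitochondrial to nuclear counts was 3.478, 3.102 and 2.779 in base, middle and apex of the Fst cKO and 3.059, 3.11 and 2.706 in Control, and the 3 libraries of each apex lay below every library of base and middle.

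**Figure D2:**
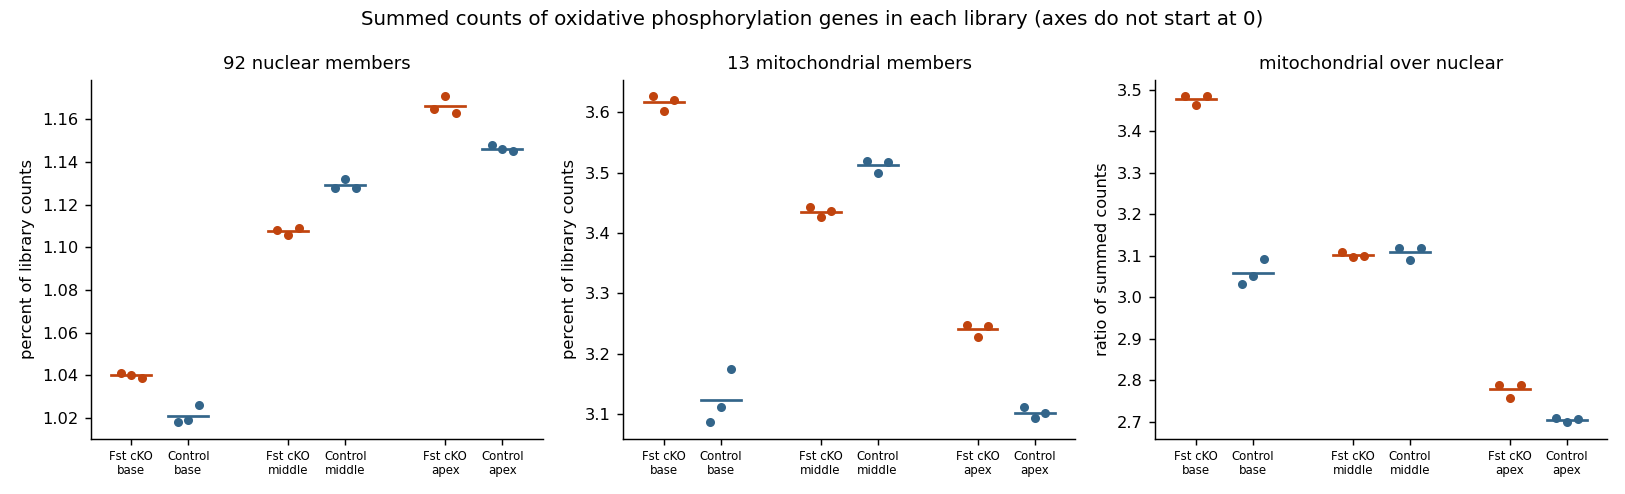
Percent of a library's counts in the 92 nuclear members (left) and the 13 mitochondrial members (middle), and their ratio (right), by region and genotype. Points are libraries and lines the mean of 3. Mitochondrial genes of the gap add almost nothing to the mitochondrial sums. Nuclear shares were lowest in base (1.021% to 1.04%), and the ratio was lowest in apex (2.706 to 2.779).

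In Control apex against Control base, 55 of 89 nuclear members were higher and 4 lower (edgeR quasi-likelihood test, adjusted p under 0.05), with a median log2 change of 0.089. Over all genes tested 26.7% were higher and 25.8% lower, with a median of 0.005, and 5.48% passed with a log2 change of at least 1 in size. The shares of all genes include genes with few counts, for which small changes pass less easily. In size, nuclear members had a median absolute log2 change of 0.099. The 8664 tested genes averaging 20 CPM or more had 0.118, so the members did not change more than well-counted genes here. The nuclear member farthest from 0 was Cox7a1, at -0.853. Higher members came from every complex: 15 of 29 accessory and 5 of 7 core subunits of complex I, 4 of 7 complex I assembly factors, 2 of 4 complex II genes, 5 of 8 of complex III, 9 of 11 ubiquitous subunits of complex IV and 11 of 15 subunits of complex V. Ndufa5, an accessory subunit of complex I, was at 56.2, 55.3 and 56.1 CPM in the Control apex libraries and at 40.7, 40.9 and 44.5 CPM in Control base. Its log2 change was 0.348 ± 0.031 (SE; edgeR, adjusted p = 8.5e-12). Cox5a, a subunit of complex IV, was at 210.2, 207.3 and 215.7 CPM in Control apex and at 169.9, 172.5 and 174.0 CPM in Control base, a log2 change of 0.227 ± 0.02 (edgeR, adjusted p = 3.39e-12). The groups do not overlap for either gene. The 4 lower members were Cox7a1, Cox6b2, Ndufa11 and Ndufv3, the first 2 of them tissue isoforms of complex IV. Cox6b2 and Ndufv3 did not pass with DESeq2, and Ndufa11, Cox6b2 and Ndufv3 did not by library totals alone. Ndufs1, the largest core subunit of complex I, changed by 0.204 and Sdha by 0.126.

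Most of the rise lay between base and middle. In Control middle against Control base 62 of 89 nuclear members were higher and 1 lower, with a median of 0.112, where 15.9% of all genes were higher and 15.6% lower. In Control apex against Control middle 13 were higher and 23 lower, against 23.1% and 22.4% of all genes, and the median was -0.019. That last split depends on the scaling: by library totals alone 28 were higher and 12 lower, with a median of 0.023. Without Control base replicate 3 the count higher was 54 in apex against base and 65 in middle against base. These were the tops of the ranges with 1 library left out, 47 to 54 and 54 to 65. In the Fst cKO the apex also stood above the base, with 69 of 89 higher and 5 lower and a median of 0.152, where 30.5% of all genes were higher, 24.7% lower and 6.6% past a log2 change of 1. Here the step from middle to apex had the larger median over genes. In apex against middle 48 were higher and 10 lower (median 0.091, all genes 25.7% and 25.2%). In middle against base 40 were higher and 20 lower (median 0.058, all genes 23.5% and 22.9%). The summed level of nuclear members instead rose more from base to middle, at 10400, 11070 and 11660 CPM in base, middle and apex. Apex and base differed with the same sign in both genotypes for 76 of 89 nuclear members. Across these 89 genes, which are not independent replicates, the apex-base changes of Fst cKO and Control had a Spearman correlation of 0.531. For the step from middle to apex, 37 of 89 had the same sign and the correlation was -0.265. Median absolute changes of nuclear members were set beside those of genes averaging 20 CPM or more. They were 0.116 and 0.063 in Control middle against base, and 0.045 and 0.088 in Control apex against middle. In the Fst cKO they were 0.156 and 0.128 in apex against base and 0.107 and 0.105 in apex against middle. Fst cKO middle against base had 0.099 and 0.107.

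All 7 measured mitochondrial members were lower in apex than in base of the Fst cKO with the scaling used here, with a median log2 change of -0.199. In Control 6 of 7 were lower, with a median of -0.134, and mt-Co1 was higher at 0.055. Over all genes, 24.7% were lower in apex than in base of the Fst cKO and 25.8% in Control. mt-Nd6, a core subunit of complex I, was at 789.2, 788.9 and 790.3 CPM in Fst cKO apex and at 985.2, 989.7 and 993.8 CPM in Fst cKO base, a log2 change of -0.363 ± 0.012 (edgeR, adjusted p = 5.75e-24). It was at 742.5, 739.1 and 723.0 CPM in Control apex and at 847.4, 854.2 and 882.7 CPM in Control base, a change of -0.297 ± 0.013 (edgeR, adjusted p = 9.75e-21). The libraries of apex and base do not overlap in either genotype. mt-Cytb, the cytochrome b of complex III, changed by -0.309 in the Fst cKO and -0.203 in Control, and mt-Nd2 by -0.306 and -0.244. mt-Nd1 was near the edge: it changed by -0.034 in the Fst cKO and by -0.061 in Control. The Control value turned to 0.007 when library totals alone set the scale. In the Fst cKO, mt-Nd1 averaged 4190 CPM in apex and 4183 CPM in base, so its direction there also depended on the scaling. Of the 5 genes that share no window with the pseudogenes searched, all 5 were lower in apex than in base of both genotypes with the scaling used here. Between base and middle the genotypes went opposite ways: 7 of 7 were lower in Fst cKO middle than in Fst cKO base (median -0.098), and 7 of 7 were higher in Control middle than in Control base (median 0.129). From middle to apex, 7 of 7 were lower in Control (median -0.278) and 6 of 7 in the Fst cKO (median -0.083). Over all genes, 22.9% were lower in middle than in base of the Fst cKO, and 15.9% higher in Control. From middle to apex 22.4% of all genes were lower in Control and 25.2% in the Fst cKO.

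**Figure D3:**
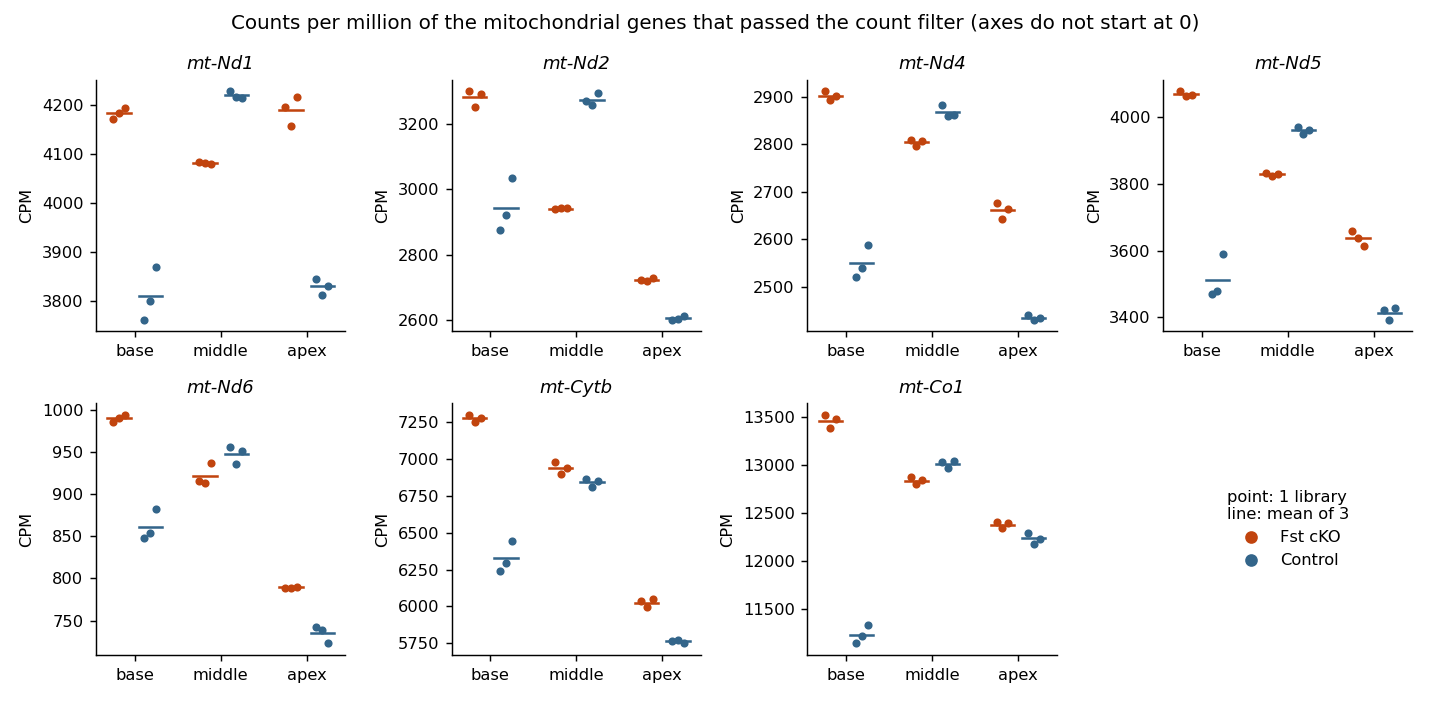
CPM of the 7 measured mitochondrial genes in each library by region, Fst cKO left of Control in each region, with the mean of 3 libraries as a line. In base and apex every Fst cKO point lies above the Control points of its region, while in middle the Control mean is the higher for all genes but mt-Cytb, with overlapping points for mt-Nd6, which ranges from 723.0 to 993.8 CPM.

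Levels of marker genes also differed along the cochlea, some in the direction of the mitochondrial genes and some not. The summed level of 8 marginal cell markers of the stria vascularis was 3573, 2957 and 2169 CPM in base, middle and apex of the Fst cKO and 2622, 2814 and 2146 CPM in Control. Of these 8 markers, 7 were lower in apex than in base of both genotypes, where 24.7% of all genes were lower in the Fst cKO and 25.8% in Control. The 7 red blood cell markers summed to 1604, 1008 and 935.5 CPM in base, middle and apex of the Fst cKO and to 546.9, 1018 and 387.1 CPM in Control. Markers of hair cells were highest in apex, with 144.4, 223.8 and 429.0 CPM in base, middle and apex of the Fst cKO and 153.4, 184.8 and 481.3 CPM in Control. Spiral ganglion neuron markers summed to 2848, 5217 and 5012 CPM in the Fst cKO and 4539, 5602 and 6919 CPM in Control. The 6 brain markers summed to 130.7, 87.24 and 16.98 CPM in base, middle and apex of the Fst cKO and 62.2, 187.6 and 23.8 CPM in Control, and the 8 airway markers to 107.9, 33.3 and 366.1 CPM in the Fst cKO and 137.7, 18.7 and 31.8 CPM in Control. Markers of Schwann cells summed to 3233, 4749 and 4268 CPM in the Fst cKO and 3898, 5012 and 5541 CPM in Control, and those of osteoblasts to 1176, 1211 and 735.4 CPM in the Fst cKO and 1732, 738.3 and 541.7 CPM in Control. In pooled tissue, fewer cells of a type and less RNA per cell cannot be told apart, and the part of these markers in the changes of the members was not tested.

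In Fst cKO apex against Control apex, 37 of 89 nuclear members were higher and 17 lower, with a median log2 change of 0.056, while 21.8% of all genes were higher, 18.8% lower and 2.04% past a log2 change of 1. In size, nuclear members stood near genes averaging 20 CPM or more. Median absolute changes of Fst cKO against Control were 0.102 and 0.091 in apex and 0.074 and 0.068 in middle. In base the members changed less, at 0.052 and 0.073. Uqcr10, a small subunit of complex III (ENSMUSG00000059534, chromosome 11, 4701973 to 4704342, minus strand), was at 107.2, 107.7 and 109.5 CPM in Fst cKO apex and at 85.3, 87.3 and 84.2 CPM in Control apex. Its log2 change of 0.36 ± 0.025 was the highest of the 89 (edgeR, adjusted p = 4.31e-14). Next to it were Uqcrq, also of complex III, at 0.327 ± 0.027, Atp5d, the delta subunit of ATP synthase, at 0.302 ± 0.02 and Cox8a at 0.296 ± 0.014. Cox8a was at 399.3, 399.4 and 397.9 CPM in Fst cKO apex and at 328.5, 325.8 and 335.5 CPM in Control apex, with a gap between the groups far wider than the spread within them. Lower members included Ndufs1 at -0.173 ± 0.021 (edgeR, adjusted p = 1.65e-08), the complex I assembly factors Ndufaf1 at -0.191 and Ndufaf5 at -0.174, and Atp5sl at -0.182. Neither Ndufaf1 nor Ndufaf5 passed with DESeq2. Of the 7 assembly factors of complex I tested, 3 were lower, and their median was -0.087. Of 29 accessory subunits of complex I, 14 were higher and 3 lower, with a median of 0.068.

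In Fst cKO middle against Control middle the balance was the other way. Of 89 nuclear members 8 were higher and 40 lower, with a median of -0.053, where 17.9% of all genes were higher, 17.7% lower and 2.72% past a log2 change of 1. All 4 genes of complex II were lower. Sdhc, a membrane anchor of succinate dehydrogenase, was at 77.3, 81.3 and 78.7 CPM in Fst cKO middle and at 97.2, 98.2 and 95.1 CPM in Control middle, a log2 change of -0.305 ± 0.026 (edgeR, adjusted p = 4.61e-12). The authors' FPKM of Sdhc did not show this drop: it averaged 83.67 FPKM in Fst cKO middle and 86.01 FPKM in Control middle (limma on log2(FPKM + 1), -0.039, adjusted p = 0.622), and in apex 89.9 and 80.1 FPKM (0.163), where the counts gave -0.054. In complex IV 8 of 11 ubiquitous subunits were lower, among them Cox4i1, a regulatory subunit, at -0.158, and Cox6a1 at -0.131. Ndufb7, an accessory subunit of complex I, was at 61.5, 60.5 and 64.4 CPM in Fst cKO middle and at 73.5, 73.0 and 72.5 CPM in Control middle, a change of -0.245 ± 0.026 (edgeR, adjusted p = 1.15e-09). Members that were higher included Ndufaf5 at 0.148, Atp5f1, a stalk subunit of ATP synthase, at 0.111 and Uqcrfs1, the Rieske iron-sulfur protein of complex III, at 0.087. Ndufaf5 did not pass with DESeq2 (adjusted p = 0.111). The count of higher members was 5 with DESeq2 and 4 without Control middle replicate 1 or 3.

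In Fst cKO base against Control base 21 of 89 nuclear members were higher and 10 lower, with a median of 0.010, where 16.5% of all genes were higher, 19.6% lower and 3.03% past a log2 change of 1. The share of members higher was a little above that of all genes and the share lower below it. Without Control base replicate 2 the median was -0.004. Complex III had 4 of 8 genes higher, with a median of 0.076. Ndufa1, an accessory subunit of complex I, was at 0.205 ± 0.033 and Ndufs6 at 0.161 ± 0.035. At the low end, Ndufaf5 was at 10.4, 11.6 and 11.1 CPM in Fst cKO base and at 12.37, 15.02 and 14.32 CPM in Control base, a log2 change of -0.34 ± 0.066 (edgeR, adjusted p = 7.31e-05). Cox5a was at -0.141 ± 0.022. Without Control base replicate 3 the counts were 23 higher and 10 lower. With any 1 library of these groups left out they were 18 to 23 higher and 9 to 12 lower.

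**Figure D4:**
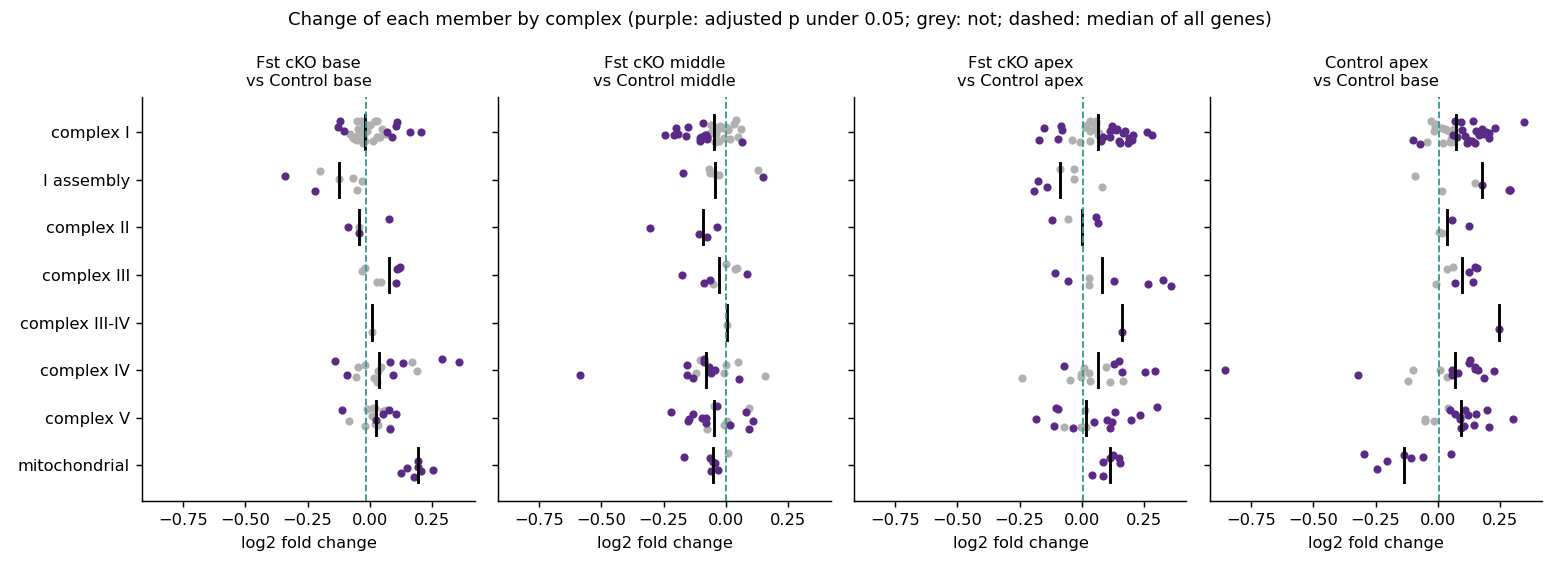
Log2 fold change of each of 89 nuclear and 7 mitochondrial members in Fst cKO against Control in base, middle and apex, and in Control apex against Control base. Points are genes, purple where the adjusted p is under 0.05, black bars mark the median of a class and the dashed line the median of all genes. Mitochondrial genes sit to the right in base (median 0.192) and apex (0.114) and to the left in Control apex against base (-0.134), where most nuclear genes sit to the right.

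The 7 mitochondrial members moved together between the genotypes. They had 20792 to 433028 counts per library, and at such counts small changes pass. Over all genes, 16.5% were higher in base, 21.8% higher in apex and 17.7% lower in middle. In Fst cKO base against Control base 7 of 7 were higher, with a median of 0.192 and a range of 0.126 for mt-Nd1 to 0.252 for mt-Co1. mt-Co1 was at 13520, 13380 and 13480 CPM in Fst cKO base and at 11140, 11220 and 11330 CPM in Control base. In Fst cKO apex against Control apex 7 of 7 were higher, with a median of 0.114 and a range of 0.039 for mt-Co1 to 0.153 for mt-Nd1. mt-Nd1, a membrane subunit of complex I, was at 4196, 4157 and 4217 CPM in Fst cKO apex and at 3844, 3812 and 3831 CPM in Control apex (edgeR, adjusted p = 2.74e-25). In Fst cKO middle against Control middle 6 of 7 were lower, with a median of -0.053, and mt-Cytb was at 0.007 ± 0.0041 (edgeR, adjusted p = 0.165). mt-Nd2 was at 2939, 2943 and 2943 CPM in Fst cKO middle and at 3271, 3260 and 3294 CPM in Control middle, the widest gap of the 7 in that region, with a log2 change of -0.167 ± 0.0063 (edgeR, adjusted p = 7.38e-22). The 5 genes that share no window with the pseudogenes searched were higher in base and apex, and 4 of the 5 were lower in middle.

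Beside these changes, all 8 marginal cell markers were higher in Fst cKO base than in Control base, with a median of 0.434, 3 were higher and 2 lower in apex, and 2 higher and 4 lower in middle. All 7 red blood cell markers were higher in Fst cKO base (median 1.555) and in Fst cKO apex (median 1.283), and 3 were higher and 3 lower in middle. Of 7 spiral ganglion neuron markers, 6 were lower in base (median -0.681) and 7 in apex (median -0.441), and 4 were higher and 3 lower in middle. Over all genes, 16.5% were higher and 19.6% lower in base, 21.8% and 18.8% in apex, and 17.9% and 17.7% in middle. What part marginal cells, red blood cells and spiral ganglion neurons have in the changes of the members was not tested.

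A change in 1 direction in all 3 regions was rare. Atp5g3, a c-ring subunit of ATP synthase, was higher in Fst cKO base, middle and apex, at 0.053, 0.093 and 0.121, with a base value that did not pass in 5 of the 6 fits without 1 library, and is 1 of 89 nuclear members, where 2.9% of all genes were higher in all 3 regions. Atp5g1, which encodes the same mature c subunit, was lower in all 3, at -0.113, -0.154 and -0.111. Sdha was lower as well, at -0.043, -0.036 and -0.121, though in base it did not pass with DESeq2 (adjusted p = 0.0519). In all 3.57% of the genes tested were lower in all 3 regions.

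The change between genotypes differed by region by the test of the difference itself. Middle minus apex, 8 of 89 nuclear members had a higher change and 44 a lower one, with a median difference of -0.103, where 18.1% of all genes were higher and 19.9% lower. The same difference was lower for 7 of 7 mitochondrial members, with a median of -0.179. These 2 contrasts use separate libraries. The apex-base change, Fst cKO minus Control, was higher for 25 and lower for 9 nuclear members, with a median of 0.049, where 16.3% of all genes were higher and 8.51% lower. It was lower for 6 of 7 mitochondrial members and higher for mt-Nd1 at 0.027, a call lost with DESeq2, RLE size factors, library totals alone and limma at both pseudocounts. By library totals alone, 15 nuclear members were lower in the apex-base difference and 13 higher in middle minus apex.

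Among the tissue isoforms of complex IV, Cox7a1 ran against most nuclear members along the cochlea. Cox7a1 and Cox8b are the forms of heart and skeletal muscle, and Cox7a2 and Cox8a their counterparts in other tissues. Cox7a1 (ENSMUSG00000074218, chromosome 7, 30184144 to 30186078, plus strand) was at 22.1, 24.5 and 22.2 CPM in Fst cKO base against 17.9, 17.8 and 17.5 in Control base. It was at 15.8, 12.9 and 14.5 CPM in Fst cKO middle against 15.9, 14.5 and 16.2 in Control middle, and at 10.8, 11.5 and 10.6 CPM in Fst cKO apex against 9.57, 11.2 and 10.1 in Control apex. It was lower in apex than in base of both genotypes, without overlap. The apex-base change was -1.10 ± 0.066 in the Fst cKO (edgeR, adjusted p = 1.73e-16) and -0.853 ± 0.068 in Control (edgeR, adjusted p = 4.52e-13), the reverse of most nuclear members. Cox7a2 changed by 0.103 and 0.058 in the same comparisons. Per length of transcript, Cox7a1 was at 126.3, 79.3 and 59.2 FPKM in base, middle and apex of the Fst cKO and 96.4, 83.5 and 55.4 FPKM in Control, beside 156.1 to 173.5 FPKM for Cox7a2.

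Cox8b had no such gradient and differed between genotypes. It was at 26.1, 29.3 and 26.0 CPM in Fst cKO base against 22.6, 22.6 and 20.8 in Control base, and at 19.4, 20.3 and 18.3 CPM in Fst cKO middle against 28.5, 28.8 and 29.1 in Control middle. In apex it was at 27.3, 27.6 and 29.3 CPM in the Fst cKO and at 26.1, 24.8 and 26.1 in Control. The groups do not overlap in any region. The log2 changes were 0.288 ± 0.048 (base), -0.587 ± 0.046 (middle) and 0.15 ± 0.046 (apex), the last not passing with limma on FPKM, and the middle value was the widest of any member between genotypes. Its level per length, 107.7 to 156.7 FPKM, lay under 825.1 to 1087 FPKM for Cox8a. The third muscle form, Cox6a2, was at the floor, beside 630.4 FPKM for its counterpart Cox6a1. Skeletal muscle itself left few counts: its 10 markers summed to 6.97 ± 0.433 CPM in Fst cKO base and 3.91 ± 0.222 in Control base, 4.02 and 2.66 in middle, and 2.67 and 2.58 in apex, and Acta1, skeletal actin, had 0 to 39 counts and Ckm, muscle creatine kinase, 0 to 16 per library. Cox7a1 had 274 to 636 counts and Cox8b 509 to 842. Of the 9 muscle markers tested, 4 were higher in Fst cKO base than in Control base, where 16.5% of all genes were higher. In apex against base, 7 were lower in the Fst cKO and 4 in Control, where 24.7% and 25.8% of all genes were lower. These are the directions of Cox7a1. The part of the muscle markers in the changes of Cox7a1 was not tested. The other alternative forms were low: Cox4i2 at a mean of 4.36 FPKM beside 549.3 for Cox4i1, Cox6b2, a testis form, at 11.3 beside 403.3 for Cox6b1, and Ndufa4l2, a hypoxia-induced relative of Ndufa4, at 8.12 beside 501.1 for Ndufa4. In the genotype comparisons these 3 had adjusted p of 0.154 to 0.849 (edgeR).

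The changes of nuclear members were set against transcript length, taken from the longest coding transcript annotated for each gene. That transcript need not be the form expressed here, so some members may sit in the wrong length set. In Fst cKO apex against Control apex the 45 members of at most 934 bases had a median of 0.097 and the 44 longer ones 0.022. In Fst cKO middle against Control middle the medians were -0.087 and -0.036, and in Fst cKO base against Control base 0.043 and -0.025. In Control middle against Control base they were 0.114 and 0.11, with a Spearman correlation of 0.015. The difference between short and long members was not tested. Across the 89 members, the Spearman correlation of change with length was -0.336 in apex, 0.352 in middle and -0.48 in base, beside -0.178, 0.146 and -0.038 over 15426 genes with a length. With the GC content of the transcript it was 0.411, -0.36 and 0.433 for the members and 0.209, -0.166 and 0.009 for all genes. For Control apex against Control base the values were 0.309 with length and -0.45 with GC, beside -0.017 and -0.055 for all genes. These correlations run over genes that share libraries, length and base composition go together, and their part in the changes was not tested.

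**Figure D5:**
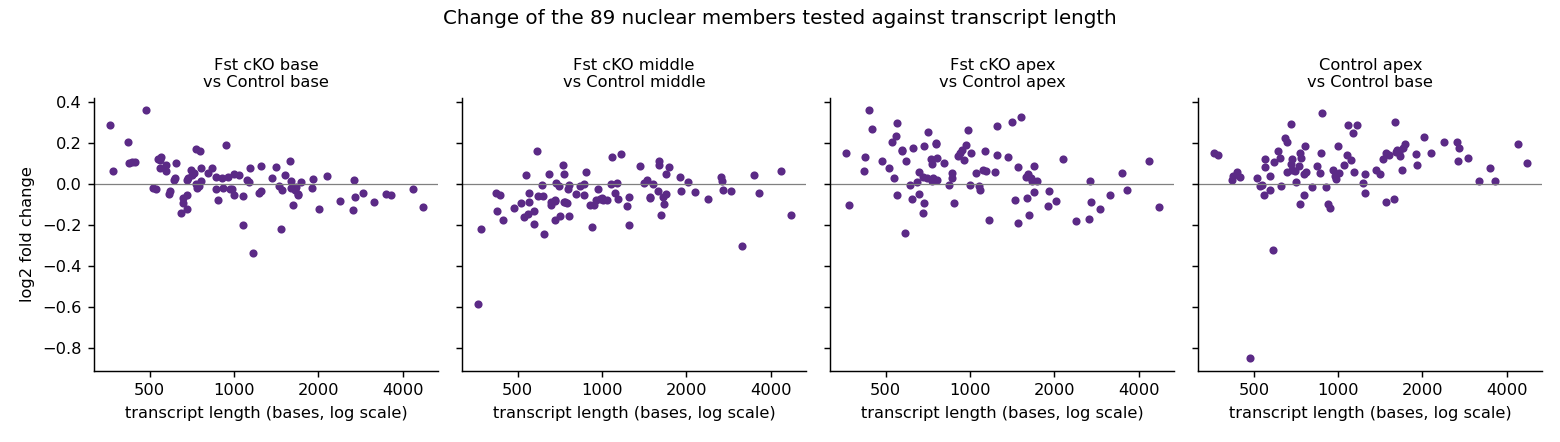
Log2 fold change of the 89 nuclear members tested against the length of their longest coding transcript (log scale) in 4 comparisons. Points are genes; the cloud slopes down in base (Spearman -0.48) and apex (-0.336) of Fst cKO against Control, and up in middle (0.352) and in Control apex against base (0.309).

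Promoters of nuclear members were looked up in RefSeq (GRCm38.p6, 250 bases before to 50 after the start), and 76 of 92 matched. Letters of 3 factors known to act on genes of mitochondrial proteins were searched on both strands: GCGCATGC for NRF1, CCGGAAG for ETS factors such as GABP, and AAGATGGC for YY1. The NRF1 letters were in 12 of 76 promoters (15.8%, beside 3.05% of 27025 genes), the ETS letters in 17 (22.4%, beside 9.93%) and the YY1 letters in 11 (14.5%, beside 3.19%). The 27025 genes were not limited to the 17901 tested here, and no set matched in expression was compared. A match is a description of the letters, not a binding site. Cox6a1 and Atp5k hold both NRF1 and ETS letters and are shown because they share these letters but not their direction in the apex, a choice made after their values were seen; matches are in capitals, and a run is longer than the motif where matches on both strands overlap.
Cox6a1, chr5:115348909-115349208, minus strand: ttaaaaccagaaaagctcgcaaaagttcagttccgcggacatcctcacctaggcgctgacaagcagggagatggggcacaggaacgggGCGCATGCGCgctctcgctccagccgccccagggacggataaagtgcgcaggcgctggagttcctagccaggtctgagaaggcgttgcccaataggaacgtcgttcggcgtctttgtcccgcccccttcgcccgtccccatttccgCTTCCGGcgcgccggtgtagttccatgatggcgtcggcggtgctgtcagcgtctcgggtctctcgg
Atp5k, chr5:108434350-108434649, minus strand: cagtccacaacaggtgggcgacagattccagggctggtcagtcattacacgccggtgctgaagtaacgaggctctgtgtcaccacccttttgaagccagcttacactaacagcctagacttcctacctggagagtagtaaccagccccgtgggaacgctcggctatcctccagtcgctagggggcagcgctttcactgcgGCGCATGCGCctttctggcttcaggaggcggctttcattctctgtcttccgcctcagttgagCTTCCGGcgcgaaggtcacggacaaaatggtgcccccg
Cox6a1 was at 0.16 ± 0.019 in Fst cKO apex against Control apex and Atp5k, subunit e of ATP synthase, at -0.104 ± 0.033, while in middle they were at -0.131 and -0.222. Of the 12 tested members with NRF1 letters, 9 had a change above 0 in apex (median 0.089) and 1 in middle (median -0.085). Of the 63 without, 42 were above 0 in apex (median 0.056) and 18 in middle (median -0.047). In base the medians were -0.015 with NRF1 letters and 0.010 without. Of the 17 tested members with ETS letters, 12 were above 0 in apex (median 0.064), 0 in middle (median -0.087) and 14 in base (median 0.064). Of the 58 without, 39 were above 0 in apex (median 0.051), 19 in middle (median -0.042) and 25 in base (median -0.018). With YY1 letters the medians of 11 members were 0.102, -0.047 and -0.011 in apex, middle and base, beside 0.056, -0.059 and 0.010 for 64 without. No difference between these sets was tested.

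Other mitochondrial and energy pathways, from lists written with earlier results of these data known, are set beside the shares of all genes: 26.7% higher and 25.8% lower in Control apex against base, 21.8% and 18.8% in Fst cKO against Control apex, 17.9% and 17.7% in middle, and 16.5% and 19.6% in base. Of 17 genes of the tricarboxylic acid cycle and pyruvate dehydrogenase, 13 were higher and 1 lower in Control apex against Control base (median 0.126). In Fst cKO apex against Control apex 1 was higher and 9 lower (median -0.064), where the nuclear members had 37 higher and 17 lower. Citrate synthase, Cs, was at -0.188 there. Of 77 proteins of the mitochondrial ribosome, 26 were higher and 4 lower in Control apex against base (median 0.072), 25 higher and 7 lower in Fst cKO apex against Control apex (median 0.021), and 4 higher and 10 lower in middle (median -0.035). Of 39 other assembly factors and carriers of the respiratory chain, 15 were higher and 2 lower in Control apex against base, 11 higher and 4 lower in Fst cKO apex, 4 higher and 8 lower in middle and 6 higher and 8 lower in base. Atpaf1, an assembly factor of ATP synthase, was at 29.7 CPM in Fst cKO base against 42.7 in Control base, a log2 change of -0.529, and at -0.26 in apex and -0.019 in middle. The 18 genes of glycolysis were split in Control apex against base, with 9 higher and 8 lower, and in Fst cKO against Control had 9 higher and 3 lower in base, 2 higher and 11 lower in middle, and 7 higher and 6 lower in apex. The counts of other assembly factors in base were close to the shares of all genes.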

How the data were processed

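Bulk RNA libraries (TruSeq with Ribo-Zero, per the labels' protocols) were analysed from 1 deposited table. Per the submitters' processing notes, STAR 2.5.2b, Cuffdiff 2.2.1 and GRCm38/mm10 were used, with no step named. The authors' deposited values are expected counts per gene and library, not scaled (89.2% to 89.9% whole within 1e-06), and FPKM per library; the counter is not given in the sources used here. Counts were rounded and fitted with edgeR 4.0.16 (R 4.3.3): filterByExpr, TMM factors of 0.977 to 1.03, a single design for all 6 groups (residual df 12), two-sided quasi-likelihood tests, Benjamini-Hochberg adjustment over 17901 genes. CPM is counts over library totals, and SE comes from the fit. Alternatives were other scalings, no filter, DESeq2 1.42.0, limma 3.58.1 on log2(FPKM + 1) and log2(FPKM + 0.1), a replicate block and each library left out. Positions, lengths and shared 50-base windows came from GENCODE M21. Windows were compared only with the unprocessed pseudogenes named above.

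The common biological coefficient of variation of the fit was 0.00988, here technical spread between libraries of 1 pool. The members and lists were chosen with earlier results of these data known. Genes named are the 13 mitochondrial members, the 4 highest and 4 lowest passing nuclear members of at least 5 CPM in each genotype comparison and in Control apex against base, isoform pairs of complex IV, and the most abundant nuclear member of each complex by FPKM; Atp5g1, Cox7a2l, Cs and Atpaf1 were named after their values were seen. Processed pseudogenes of nuclear members were not screened for shared reads. Same-numbered libraries did not deviate together, so the numbers were not used as pairs.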

Additional observations from a re-analysis of the deposited data

Results flagged for a closer look

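Each result here was picked out because the change differed between 2 regions or 2 genotypes by a test of the difference itself (edgeR, adjusted p under 0.05). All values are differences of log2 changes, and no explanation was weighed.

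For the Fst cKO against Control change in middle minus that in apex, 8 nuclear members were higher and 44 lower, and 7 mitochondrial members were lower. Complex IV subunits were among the lower ones, with Cox4i1 at -0.288, Cox6a1 at -0.291, Cox8a at -0.339 and the muscle form Cox8b at -0.737. In complex I, Ndufa3 was at -0.17, Ndufa11 at -0.361 and Ndufb7 at -0.42, and the assembly factor Ndufaf5 was at 0.322. Among mitochondrial genes, mt-Nd2 was at -0.254, mt-Nd1 at -0.213, mt-Nd4 at -0.195, mt-Nd6 at -0.179, mt-Nd5 at -0.175 and mt-Co1 at -0.072.

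For the apex-base change, Fst cKO minus Control, 25 nuclear members were higher and 9 lower, and 1 mitochondrial member was higher, a call lost under 5 alternatives, and 6 were lower. By library totals alone 15 nuclear members were lower here and 13 higher in middle minus apex. mt-Co1 was at -0.213, Uqcrh at -0.174, Atp5b at -0.062 and Ndufa11 at 0.172. For Atp5b the authors' FPKM pointed the other way, with 974.1 FPKM in apex and 744.7 in base of the Fst cKO, and 816.0 in apex and 719.4 in base of Control.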

How the results depend on the processing

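Under another scaling, filter, tool or block 336 counts stayed within 1.5 times their value and 16 did not, and with 1 library left out 305 did and 7 did not. Values of named genes kept their side of the threshold in 1308 cases, lost the call in 72, gained it in 21 and turned in 7. With 1 library left out 955 kept their side, 85 lost the call and 16 gained it. Direction was compared only for values that passed in the fit used here, so turns of the others are not counted. Medians moved in 23 cases and turned in 1, and with 1 library left out moved in 7 and turned in 1. By library totals alone, Control apex against Control middle had 28 nuclear members higher and 12 lower (median 0.023), Control apex against Control base 1 lower, the apex-base difference 15 lower, middle minus apex 13 higher, and mt-Nd1 in Control apex against base 0.007. Under that scaling the median of all genes was at most 0.073 in size, in Control apex against base, where it was 0.005 with TMM. In Fst cKO middle against Control middle, nuclear members higher were 5 with DESeq2 and 4 to 7 with 1 library left out (4 without Control middle replicate 1 or 3, 5 without Fst cKO middle replicate 2 or 3). Mitochondrial members higher there were 1 by library totals alone or with no filter, and 0 to 1 with 1 library left out (1 without Fst cKO middle replicate 2). Nuclear members lower in Control apex against base were 2 with DESeq2. Nuclear members lower in Control middle against base were 0 to 2 with 1 library left out (0 without Control middle replicate 2, 2 without Control base replicate 2). The nuclear median of Fst cKO base against Control base was -0.004 to 0.019. Nuclear members lower there were 6 with limma at either pseudocount. The 1 mitochondrial member higher in the apex-base difference became 0 with DESeq2, RLE size factors, library totals alone and limma at both pseudocounts. With limma on FPKM, Atp5b turned to 0.255 in apex and 0.101 in middle of Fst cKO against Control, and Sdhc in base to 0.093 and 0.092 (pseudocounts 0.1 and 1), so the authors' FPKM and counts differ in direction for both genes. The cause was not tested. With a replicate block, nuclear members higher and lower were 37 and 17 in apex, 7 and 40 in middle and 22 and 9 in base; same-numbered libraries had correlations of deviations of -0.11 to 0.072, so the numbers share no pairing. Depth limits Cox8c, Cox7b2 and Cox6a2, which lie at the floor.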

Other observations

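The 2 mitochondrial ribosomal RNAs, outside the members and a target of rRNA removal, summed to 771.9, 659.1 and 770.6 CPM in base, middle and apex of the Fst cKO and to 554.0, 651.2 and 606.3 CPM in Control. Shares of all genes, higher and lower, were 21.8% and 18.8% in Fst cKO against Control apex, 17.9% and 17.7% in middle, 16.5% and 19.6% in base, and 26.7% and 25.8% in Control apex against base, and several counts below are close to them. Of 16 genes for transcription and RNA of the mitochondrial genome, 1 was higher and 5 lower in Fst cKO apex against Control apex (median -0.047), 3 higher and 1 lower in middle, and 3 lower in base. Lrpprc, which stabilises mitochondrial mRNA, averaged 64.9 CPM in Fst cKO apex and 72.0 CPM in Control apex, and 54.5 CPM in Fst cKO base and 61.5 CPM in Control base, the reverse of the mitochondrial mRNAs. Of 11 regulators of mitochondrial biogenesis, 4 were higher and 2 lower in Fst cKO apex against Control apex, and 2 higher and 4 lower in Control apex against Control base. Nrf1, the factor of the promoter letters searched, averaged 29.5 CPM in Fst cKO apex and 26.5 CPM in Control apex. Both genes were named after their values were seen.

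Limits: each group is 1 RNA pool, so differences between pools, including how the regions were cut, cannot be told apart from genotype or position. The 6 mitochondrial genes at or near 0 leave complex V without a measured mitochondrial subunit. Complex I assembly factors had fewer counts than most subunits and wider errors.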
